A study of Mus musculus with 36 samples.

Results

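Puromycin-treated mouse embryonic stem cells (mESCs) were compared with control mESCs by the half-lives of their mRNAs. For each mRNA, the log2 half-life in control was subtracted from the log2 half-life with puromycin, so that a value above 0 is a longer half-life with puromycin and a value of 1 is a half-life 2-fold longer. The comparison takes in all 10325 mRNAs listed for the series, of 10325 in all. The ratio spread more widely over mRNAs with few reads (SD 1.06 under 1000 average reads and 0.63 from 1000 upward). Most values are therefore given for the 3247 mRNAs with at least 1000 average reads.

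The cells were E14Tg2a, an established mESC line of the 129/Ola strain, kept in 2i medium, which holds them in a naive pluripotent state. All cells were given 4-thiouracil for 24 h, which puts a sulfur-bearing uridine into new RNA, and were then moved to an excess of uridine with no antibiotic (control), with 0.1 µg/mL puromycin or with 0.1 µg/mL G418. Antibiotics were thus present only while the labelled RNA was being lost. RNA was taken 0, 1, 2, 4, 8 and 24 h after the move, with 2 replicates, which makes 12 libraries per condition and 36 in all.

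Puromycin resembles the end of a tRNA that carries an amino acid. The ribosome joins it to the growing peptide, and the unfinished peptide is released. Decay of many mRNAs is tied to their translation: ribosomes that stall or collide can bring in decay factors, and loss of the poly(A) tail and of the cap often takes place on mRNAs that are being translated. Drugs that stop translation can therefore change how long an mRNA lasts. In SLAM-Seq, the assay used here, labelled uridines are alkylated and read as cytidines, and the fraction of reads with such conversions falls as labelled mRNA decays. A half-life is the time in which that fraction is halved along a fitted exponential curve.

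In the deposited table the replicates had been combined, and an mRNA has 1 half-life, in minutes, for each condition. No half-life has a replicate error, no difference has a replicate check and no p-value is given. Each interval treats the mRNAs as a sample and covers counting over mRNAs only, since an mRNA is no replicate of a treatment.

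Across well-read mRNAs, half-lives with puromycin were slightly longer at the median and differed widely from one mRNA to the next. Among the 3247 mRNAs with at least 1000 average reads, the median half-life was 197 min under puromycin and 189 min in control cells. The median log2 ratio was 0.05 (95% interval 0.03 to 0.07), a median change in half-life of 3.60%. On the curve that defines a half-life, the control median leaves 17.1% of an mRNA after 8 h and the puromycin median leaves 18.5%.

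Half-lives were longer with puromycin for 1771 of these mRNAs (54.5%, 95% Clopper-Pearson interval 52.8% to 56.3%) and shorter for 1476. The quartiles of the log2 ratio were -0.26 and 0.37, so the middle of the distribution spans both directions. When each condition was divided by its own median half-life, the median log2 ratio was -0.02 and 48.3% of the mRNAs were longer with puromycin. That division places the balance near 0 by construction, so these values do not bear on whether the small excess is an effect of puromycin. With G418 in place of puromycin, the same mRNAs had a median log2 ratio to control of -0.11, and 40.7% were longer with the drug. Both comparisons use the same control half-lives.

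**Figure D1:**
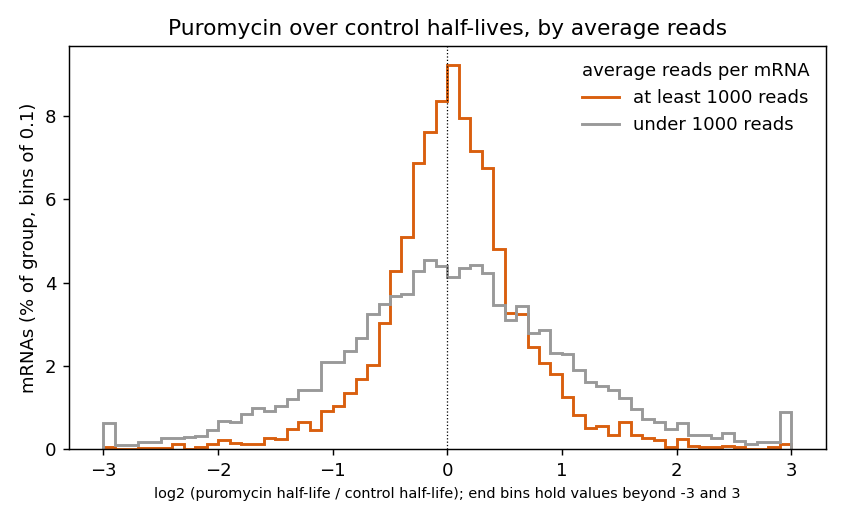
Share of mRNAs (y axis, percent of each group) by log2 ratio of puromycin over control half-life (x axis, bins of 0.1; the end bins also hold values beyond -3 and 3). The 3247 mRNAs with at least 1000 average reads (orange) have an SD of 0.63 and the 7078 mRNAs with fewer reads (grey) an SD of 1.06, and both lie close to 0 at the median.

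To follow the ratio across the range of stability, mRNAs were ranked by their half-life with G418, which does not enter the ratio, and divided into 5 groups of 649 or 650 mRNAs. The median ratio was small in every group, while the spread was widest among the most stable mRNAs. From the least to the most stable group, the median log2 ratio was 0.02, 0.06, 0.04, 0.05 and 0.07. The most stable group minus the least stable group was 0.05, and the 95% intervals of their medians over mRNAs were 0.00 to 0.12 and -0.03 to 0.08. That difference was 0.11 with a minimum of 2000 reads and 0.09 between the end groups of 10. Whether the groups differ in their response to puromycin was not tested, since mRNAs are not replicates.

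In minutes, the difference was larger for stable mRNAs, which had both longer half-lives and a higher median ratio. The median change in half-life was 1.58% in the least stable group and 5.01% in the most stable. In the least stable group, with G418 half-lives up to 127 min, the control median was 121 min and the puromycin median 125 min. In the most stable group, with G418 half-lives of at least 259 min, these medians were 337 min and 364 min. The median difference within an mRNA was 2.03 min in the least stable group and 13.3 min in the most stable.

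The share of mRNAs with a longer half-life was 52.0% in the least stable group and 54.2% in the most stable, with 54.8% to 56.7% in the groups between. What differed more was the spread: the SD of the log2 ratio was 0.61 in the least stable group, 0.48 in the next and 0.85 in the most stable. This was not particular to puromycin over control. In the same groups the SD was 0.58, 0.45 and 0.86 for G418 over control, and 0.56, 0.45 and 0.82 for G418 over puromycin. In those ratios the ranking half-life is a term. The most stable group also held all 14 control half-lives beyond the 24 h chase and 18 of the 22 such puromycin half-lives. With half-lives from 1 h to 24 h in all conditions, the SD of puromycin over control in this group was 0.77. The quartiles in the most stable group were -0.32 and 0.54. The most stable group held 81 mRNAs at least 2-fold longer with puromycin and 55 at least 2-fold shorter. With the same limits on half-lives these counts were 66 and 43. Without them, the least stable group held 34 and 28, more than the groups between, which held 21 and 11, 24 and 17, and 30 and 23 in order of stability. With the limits, the least stable group held 23 and 22. The groups between then held 21 and 10, 21 and 16, and 29 and 21, so that order did not hold for lengthened mRNAs.

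With 10 groups in place of 5, the most stable group of 324 mRNAs had a median log2 ratio of 0.08 and quartiles of -0.38 and 0.77. Its median half-life was 410.3 min without antibiotic, 422 min with G418 and 452 min with puromycin. In this group 17.3% of its mRNAs were at least 2-fold longer with puromycin and 10.5% at least 2-fold shorter. The upper quartile of this group was the highest of the 10, and the other groups had upper quartiles between 0.30 and 0.40. The least stable of the 10 groups, with a median G418 half-life of 87.6 min, had a median log2 ratio of 0.00.

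**Figure D2:**
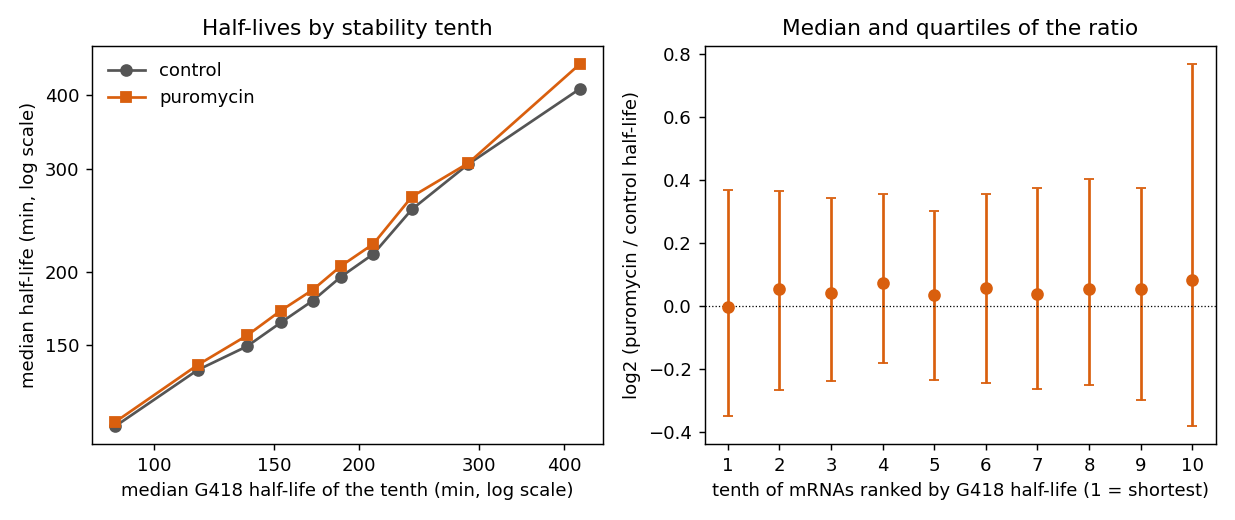
Left, median half-life in control (grey) and with puromycin (orange) in 10 groups of mRNAs ranked by G418 half-life, against the median G418 half-life of the group (both axes in minutes, log scales), for mRNAs with at least 1000 average reads. Right, median (points) and quartiles (bars) of the log2 ratio of puromycin over control in the same groups, from the shortest-lived (1) to the longest-lived (10): the medians lie between 0.00 and 0.08 while the upper quartile reaches 0.77 in the last group.

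Ranking by a half-life that is part of the ratio gives another picture. When the same mRNAs were ranked by control half-life, the median log2 ratio went from 0.32 in the least stable group to -0.23 in the most stable. Ranked by puromycin half-life, it went from -0.21 to 0.34. In both cases the half-life used for the ranking is also a term of the ratio, so the slopes follow in part from how they were computed, and neither is read here as a relation to stability. With the geometric mean of control and puromycin half-lives as the ranking, the medians were between 0.02 and 0.07.

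The tails of the distribution were long on both sides and somewhat fuller on the side of longer half-lives. Among the 3247 mRNAs, 190 were at least 2-fold longer with puromycin (5.85%) and 134 were at least 2-fold shorter (4.13%). Longer half-lives were thus 58.6% of the changes of at least 2-fold (95% Clopper-Pearson interval 53.1% to 64.1%). At a limit of 1.5-fold, 513 mRNAs were longer (15.8%) and 342 shorter (10.5%). At 4-fold, 26 were longer and 15 shorter.

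Over all 10325 mRNAs, the shares at 2-fold were 13.0% longer and 11.0% shorter. The larger shares come with fewer reads per mRNA, as the read bins show. With each condition divided by its own median, which subtracts the same constant from every log2 ratio, the counts were 166 longer and 157 shorter among the 3247 mRNAs. In G418 over control, with the same control half-lives, 87 mRNAs were at least 2-fold longer and 205 at least 2-fold shorter.

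The 5th and 95th percentiles of the log2 ratio were -0.92 and 1.07, and the 1st and 99th were -1.63 and 1.84. Measured from the median, the 1st percentile lay at -1.69 and the 99th at 1.78, so the far ends were close to equally distant from the middle. In fold terms, 1% of these mRNAs had a half-life at least 3.57 times as long with puromycin as in control.

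For the 190 mRNAs at least 2-fold longer with puromycin, the median half-life was 447 min under puromycin, 158 min in control cells and 228 min under G418. For the 134 at least 2-fold shorter, it was 178 min under puromycin, 411 min in control cells and 218 min under G418. The mRNAs were chosen by control and puromycin half-lives, so only the G418 value is free of the choice.

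In the 2923 mRNAs within 2-fold, the medians were 193 min under puromycin, 185 min in control cells and 176 min under G418. The median G418 half-life was longer in both tails than between them. Tail members also had fewer reads, with a median of 1544 for the lengthened and 1582 for the shortened mRNAs, against 1830 for those within 2-fold. The part of read number in the tails was not tested.

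**Figure D3:**
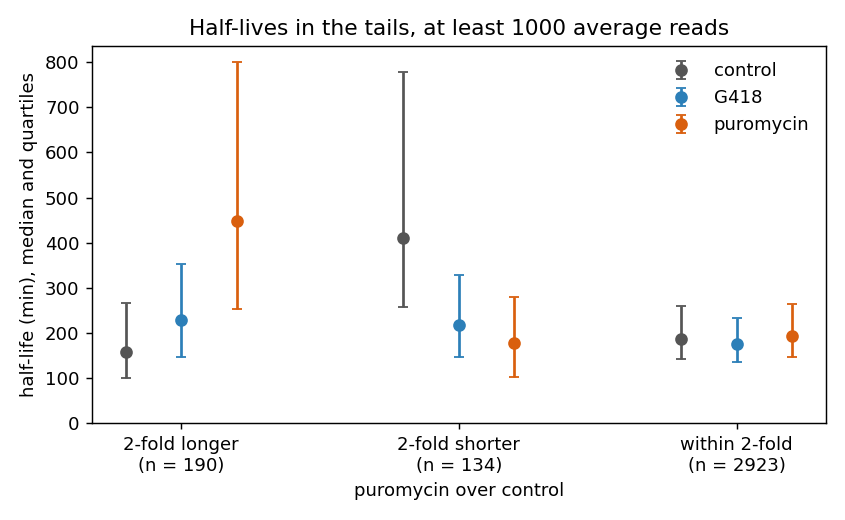
Median half-life (points) with quartiles (bars), in minutes, in control (grey), with G418 (blue) and with puromycin (orange), for mRNAs with at least 1000 average reads grouped by puromycin over control: 190 at least 2-fold longer, 134 at least 2-fold shorter and 2923 within 2-fold. The median G418 half-life was 228 min and 218 min in the tails and 176 min between them.

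Some of the long half-lives are extrapolated. Half-lives beyond the 24 h of the chase were listed for 22 of the 3247 mRNAs with puromycin and for 14 in control. Among the 190 lengthened mRNAs, 16 had a puromycin half-life beyond 24 h, and among the 134 shortened mRNAs, 11 had a control half-life beyond 24 h. With half-lives limited to between 1 h and 24 h in all 3 conditions, 160 mRNAs were at least 2-fold longer and 112 at least 2-fold shorter among 3135.

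The identifiers in the table are not paired with gene names there, and only the most extreme mRNAs are given, among those with at least 1000 average reads and half-lives from 1 h to 24 h in every condition. The largest lengthening was that of uc007cej.1, at 747 min under puromycin against 86.7 min in control cells and 189 min under G418 (1133 reads), a log2 ratio of 3.11. Next was uc007cte.1, at 852 min under puromycin against 109.9 min in control cells and 422 min under G418 (1183 reads), a log2 ratio of 2.96. In both, the 3 conditions were well apart, with G418 between control and puromycin.

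The largest shortening was that of uc012amp.1, at 76.4 min under puromycin against 1330.1 min in control cells and 488 min under G418 (1151 reads), a log2 ratio of -4.12. Its control half-life is close to the length of the chase. For uc033img.1 the half-life was 69.9 min under puromycin, 594 min in control cells and 98.5 min under G418 (1980.5 reads), a log2 ratio of -3.09. There the G418 half-life lay nearer to the puromycin half-life than to the control half-life. None of these 4 mRNAs had more than 2000 average reads.

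The spread of the ratio was widest where reads were fewest. In bins of average reads per mRNA, the SD of the log2 ratio was 1.28 under 250 reads (1613 mRNAs), 1.10 from 250 to 500 reads (2717) and 0.86 from 500 to 1000 reads (2748). It was 0.66 from 1000 to 2000 reads (1813), 0.61 from 2000 to 4000 reads (882), 0.49 from 4000 to 8000 reads (347) and 0.56 at 8000 reads or more (205). The distance between the quartiles, which the tails do not touch, went down in every step, from 1.66 in the first bin to 0.37 in the last. For G418 over control, the SD was likewise 1.22 under 250 reads, 0.46 from 4000 to 8000 reads and 0.49 at 8000 reads or more.

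The median ratio showed no such trend. It was 0.05, 0.01, 0.05, 0.05, 0.05, 0.01 and 0.07 from the bin with the fewest reads to the bin with the most. As a description over mRNAs, log2 half-lives in control and puromycin had a Pearson correlation of 0.14 in the 1613 mRNAs under 250 reads and of 0.87 in the 205 mRNAs with 8000 reads or more. Read numbers were averaged over all 36 libraries together, so the reads behind the puromycin half-life alone are not known.

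The share of mRNAs at least 2-fold longer with puromycin went from 21.9% under 250 reads to 2.31% from 4000 to 8000 reads, and the share at least 2-fold shorter from 19.6% to 3.17%. On either side of the 1000-read minimum, 12.4% were longer and 9.28% shorter from 500 to 1000 reads, and 6.56% were longer and 4.74% shorter from 1000 to 2000 reads. Up to 8000 reads the tails thus narrowed together. In the last bin they parted, with 17 of 205 mRNAs at least 2-fold longer (8.29%) and 2 at least 2-fold shorter (0.976%). Of these 17, 9 had puromycin half-lives beyond the 24 h chase. With half-lives from 1 h to 24 h in all conditions, 8 of 188 were longer (4.26%) and 2 shorter (1.06%).

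**Figure D4:**
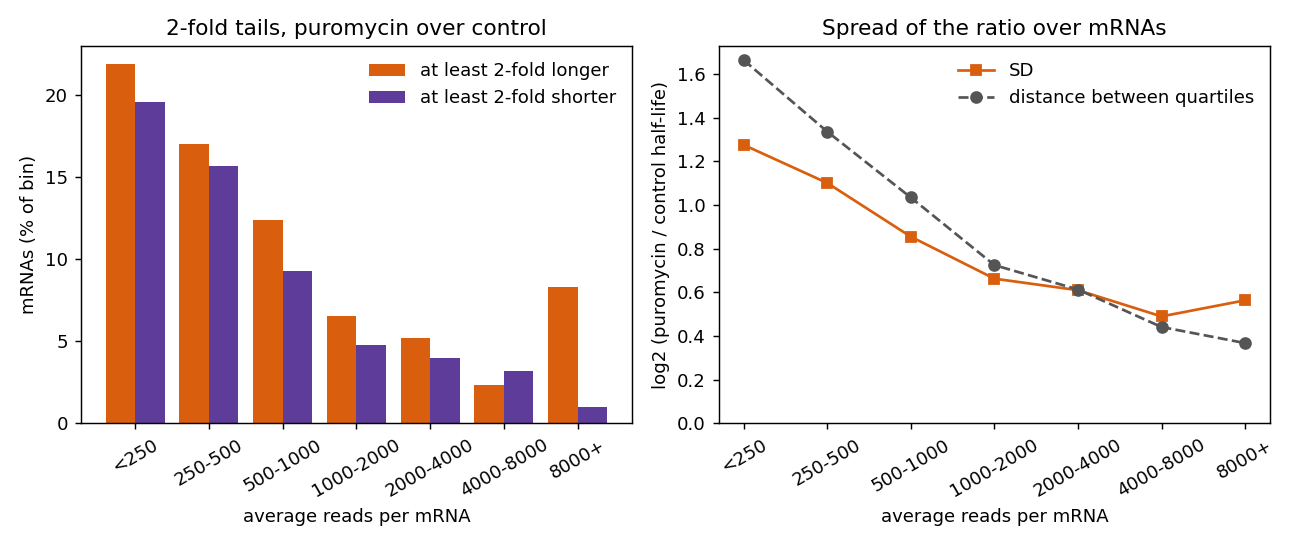
Left, share of mRNAs at least 2-fold longer (orange) and at least 2-fold shorter (purple) with puromycin than in control, in 7 bins of average reads per mRNA (x axis). Right, SD (squares) and distance between the quartiles (circles) of the log2 ratio in the same bins. The shares fall together up to 8000 reads, and above it 8.29% are longer and 0.976% shorter. With half-lives from 1 h to 24 h in all conditions, the shares above 8000 reads are 4.26% and 1.06%.

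The 205 most abundant mRNAs, with at least 8000 average reads, take 31.3% of all reads on the listed mRNAs. This bin is described further because its tails had been seen to part, so its values are a description and no test of a difference from other bins. Half-lives were longer with puromycin for 134 of its mRNAs (65.4%) and for 53.8% of the 3042 mRNAs with 1000 to 8000 reads. Their median log2 ratio was 0.07, with quartiles of -0.05 and 0.32. At the other end of the same bin, the 95th percentile of the ratio was 1.34 and the 5th was -0.57, so the long tail was on the side of longer half-lives. For the 188 mRNAs with half-lives from 1 h to 24 h in all conditions, these percentiles were less far apart, at 0.93 and -0.52.

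With each condition divided by its own median in the bin, which brings the share near an even balance by construction, 46.3% were longer, 15 mRNAs were at least 2-fold longer and 4 at least 2-fold shorter. Without that division, no mRNA of the bin was at least 3-fold shorter with puromycin, and 9 were at least 3-fold longer. With it, 0 were at least 3-fold shorter and 6 at least 3-fold longer. Most of the 9 rest on puromycin half-lives beyond the 24 h chase, at 1956, 2144, 2230, 2989 and 3057 min, the last against 557 min in control. The others had puromycin half-lives of 454, 462, 1006 and 1121 min. In G418 over control the same bin had 4 mRNAs at least 2-fold longer and 14 at least 2-fold shorter, with the control half-lives in common.

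The distributions of half-lives in this bin were further apart at the upper quartile than at the lower. The 25th percentile was 191 min under puromycin and 185 min in control cells. The 75th percentile was 565 min under puromycin, 467 min in control cells and 358 min under G418, and the 95th was 1703 min, 977 min and 728 min for these conditions, the first of them beyond the 24 h chase. For mRNAs with 1000 to 8000 reads the 95th percentile was 522 min under puromycin, 491 min in control cells and 391 min under G418.

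In the bin, 2-fold lengthening was more frequent among long-lived mRNAs, while the share of mRNAs with any lengthening was not. Half-lives were longer with puromycin for 64.3% of mRNAs with a G418 half-life under 4 h, 68.5% of those with 4 to 8 h and 61.8% of those with 8 h or more. Among the 98 mRNAs under 4 h, the median log2 ratio was 0.04, and 2 were at least 2-fold longer and 1 at least 2-fold shorter. Among the 73 with 4 to 8 h it was 0.13, and 7 were at least 2-fold longer and 1 shorter. Among the 34 with 8 h or more half-lives had a median of 1002 min under puromycin and 803 min in control cells, and 8 were at least 2-fold longer and 0 shorter. Of these 34 mRNAs, 11 had puromycin half-lives beyond the 24 h chase. With half-lives from 1 h to 24 h in all conditions, 22 were left. Their medians were close, at 784 min under puromycin and 775 min in control cells.

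The median log2 ratio of all 34 mRNAs with 8 h or more was 0.43, and 21 of them were longer with puromycin. Its 95% interval, which covers counting over mRNAs only, was -0.05 to 0.87. For the 22 mRNAs with half-lives from 1 h to 24 h, the median was 0.18 (-0.13 to 0.49), and 12 were longer. Without that limit, the same G418 groups at 1000 to 8000 reads had medians of 0.05, 0.04 and 0.07. Pooled over 1000 to 8000 reads, the share at least 2-fold longer was also higher for long-lived mRNAs, at 4.09%, 10.5% and 15.6%. The last of these shares was uneven over reads. With a G418 half-life of 8 h or more, 10 of 38 mRNAs were at least 2-fold longer and 7 shorter at 1000 to 2000 reads. At 2000 to 4000 reads these counts were 2 and 7 of 25, and at 4000 to 8000 reads 0 and 2 of 14. In the bin with the most reads the shares at least 2-fold longer were 2.04%, 9.59% and 23.5%. In that bin, 6 of the 8 such mRNAs with a G418 half-life of 8 h or more, and 3 of the 7 with 4 to 8 h, had puromycin half-lives beyond 24 h. Limited to half-lives from 1 h to 24 h, its shares were 2.06%, 5.80% and 9.09% (2 of 22 mRNAs). The share at least 2-fold shorter was 3.20%, 6.62% and 20.8% at 1000 to 8000 reads and 1.02%, 1.37% and 0% in the bin with the most reads. Whether the bins differ was not tested, since mRNAs are not replicates.

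The chase length limits these values. Of the 17 mRNAs at least 2-fold longer in the bin, 9 had a puromycin half-life beyond 24 h, and the 17 had median half-lives of 1473 min under puromycin, 494 min in control cells and 428 min under G418. With half-lives limited to between 1 h and 24 h in all conditions, 8 of 188 mRNAs were at least 2-fold longer, 2 were at least 2-fold shorter and 64.4% were longer. The most stable of 5 groups by G418 half-life minus the least stable was 0.32 in the whole bin and 0.10 with this limit. In the whole bin it was -0.05 ranked by control half-life and 0.58 ranked by puromycin half-life, which are both in the ratio, and 0.30 ranked by their geometric mean. Puromycin half-lives beyond 24 h were more frequent in this bin (15 of 205) than at 1000 to 8000 reads (7 of 3042).

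**Figure D5:**
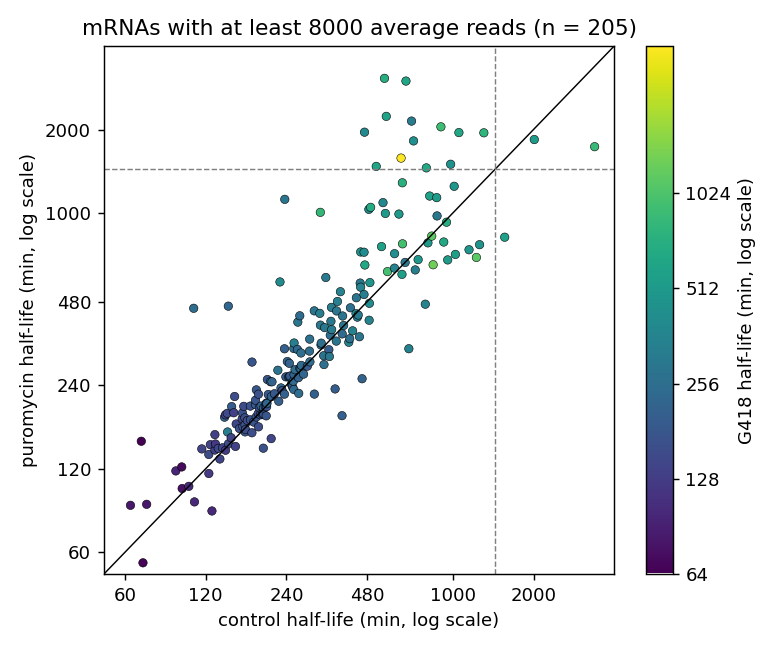
Half-life with puromycin (y axis) against half-life in control (x axis), in minutes on log scales, for the 205 mRNAs with at least 8000 average reads, coloured by G418 half-life. The solid line marks equal half-lives and the dashed lines the 24 h of the chase: 134 mRNAs lie above the solid line, and 15 lie above the dashed line for puromycin.

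Reads can also be used as weights, so that abundant mRNAs count for more. The mRNA with the most reads, 289411 on average or 1.98% of all reads, had a half-life of 2045 min under puromycin, 903 min in control cells and 892 min under G418, a log2 ratio of 1.18 that rests on a puromycin half-life beyond the 24 h chase. Of the 20 mRNAs with the most reads, 15 were longer with puromycin and 5 shorter, with log2 ratios from -0.71 to 2.46 and a median of 0.21. Puromycin half-lives beyond 24 h were listed for 3 of the 20, the mRNA with the highest ratio among them (3057 min).

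Over all 10325 mRNAs, 57.4% of reads were on mRNAs with a longer half-life with puromycin, 9.53% on mRNAs at least 2-fold longer and 4.64% on mRNAs at least 2-fold shorter. Without the mRNA with the most reads, these shares were 56.5%, 7.70% and 4.74%. The mean log2 ratio over all mRNAs was 0.12 when weighted by reads and 0.05 when each mRNA counted once. Without the mRNA with the most reads, the mean weighted by reads was 0.10.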

How the data were processed

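The authors aligned paired-end reads with Bowtie2 (mm10 in the paper's methods, while the submitters' processing notes list both mm10 and GRCm39), took fractions of reads with U to C conversions and fitted exponential decay. The deposited half-lives are in minutes, 1 per mRNA and condition. How replicates were combined, and any filter or scaling, is not given in the sources used here. The deposited average read number per mRNA was entered as a score, since it is a mean and not a whole count. Each average multiplied by 36 was whole within 0.002, so it was read as a mean over 36 libraries. The averages add up to 14634046 reads per library on the listed mRNAs. How deep each library was is not known.

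Log2 ratios were computed within each mRNA without rescaling and described by medians, quartiles, SDs and counts. Intervals of shares are exact binomial ones, and those of medians are by order statistics. The intervals of differences between medians and of SDs, used to judge alternatives, are of neither kind. Those of differences are symmetric about the difference. The mRNAs given by identifier are the 2 highest and the 2 lowest ratios under the limits stated beside them. None of the 10325 identifiers was found in the annotation used here (0 matches), so gene names, gene lists, sequences and stem cell markers were not analysed here.

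Alternatives were other read minimums, fold limits and rankings, half-lives from 1 h to 24 h, centring of each condition, the mean, and the interquartile range as a spread. The detailed account of mRNAs with at least 8000 reads, its alternatives and the limits of G418 half-life at 4 h and 8 h were chosen after seeing the data. Members and lists were chosen with earlier results of these data known. Calculations were tested on simulated data and run with scipy 1.17.1, pandas 2.3.3, numpy 2.4.6 and python 3.11.15, and plots with matplotlib 3.10.9.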

Additional observations from a re-analysis of the deposited data

How the results depend on the processing

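Of 68 alternatives, 37 left the value within its interval (counts within 1.5 times), 26 moved it and 5 turned its direction. Those 5 come from centring, which shifts all ratios alike, and from rankings by control half-life, which is in the ratio.

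After centring of each condition, the median log2 ratio was -0.015, 48.3% of mRNAs were longer and 51.4% of 2-fold changes were longer. With no minimum of reads, 52.4% were longer, 1345 mRNAs were at least 2-fold longer and 1131 shorter, and the SD was 0.94. A minimum of 500 reads gave 530 longer, 389 shorter and an SD of 0.74. A minimum of 2000 reads gave 71 longer, 48 shorter and an SD of 0.58. These counts follow in part from more or fewer mRNAs. At 1.5-fold there were 513 longer and 342 shorter, and at 3-fold 60 and 38. The SD was 0.59 with half-lives from 1 h to 24 h, and 0.47 from the interquartile range. The most stable minus the least stable of 5 groups was -0.55 ranked by control half-life and 0.55 ranked by puromycin half-life, which are in the ratio, and 0.11 at a minimum of 2000 reads and 0.09 with 10 groups, within the wide interval of -0.03 to 0.13 around 0.05. The SD of the most stable group was 0.77 with half-lives from 1 h to 24 h.

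The alternatives for mRNAs with at least 8000 reads and for the SD of the most stable group were chosen after seeing the data. Of 205 mRNAs, 17 were at least 2-fold longer and 2 shorter. A minimum of 16000 reads gave 7 longer and 0 shorter of 85, a minimum of 4000 reads 25 and 13 of 552, half-lives from 1 h to 24 h 8 and 2 of 188, and centring 15 and 4 of 205. The share longer was 57.6% at a minimum of 4000 reads and 46.3% with centring. The most stable minus the least stable group was 0.32 (interval -0.05 to 0.68), and -0.0499 ranked by control half-life, 0.12 at a minimum of 4000 reads, 0.49 at 16000 and 0.10 with half-lives from 1 h to 24 h. With those half-lives, 9.09% of mRNAs with a G418 half-life of 8 h or more were at least 2-fold longer, in place of 23.5%. The cause was not tested where the alternative's construction does not show it.

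No paired analysis was possible because replicates had been combined into pooled half-lives, and leaving out a replicate could not be run either. Few reads went with wide spread: the SD of the log2 ratio was 1.28 under 250 reads and 0.49 from 4000 to 8000 reads.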
